A study of Mus musculus with 12 samples.

Results

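Cish, the 7 numbered suppressor of cytokine signaling genes Socs1 to Socs7, and the transcription factor genes Stat5a and Stat5b were described in the septum of lactating and virgin mice. These 10 genes were measured by 14 transcript clusters of a microarray that holds 35556 clusters in all. A transcript cluster is the set of probes that reads one gene or one stretch of a gene, and a cluster counted as a member when its 1 listed gene symbol was one of the 10. No cluster that lists several symbols held a member. The group was selected on measured values, because it was proposed with the difference of Cish between these same arrays known, so the values of the members between lactating and virgin mice are given as a description and carry no test.

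RNA of the microdissected septum was hybridised on 12 arrays, 1 mouse per array, from 6 lactating females taken between postpartum days 6 and 8 and 6 virgin females of the same age, about 70 days. All 12 mice came from a single line bred for high maternal aggression out of the outbred stock hsd:ICR. Future mothers lived with a breeder male and virgins with other females for the same time, and all were then housed singly. The virgins were not in proestrus and were at different stages of the cycle, and the stage of each mouse is not given in the labels. The labels call the punched tissue lateral septum, whereas the methods of the study describe the whole septum, so the exact extent of the punch is uncertain. Since whole tissue was measured, a lower number of cells of a type and less RNA per cell cannot be told apart in any value below.

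Cytokines and hormones such as prolactin and growth hormone bind receptors that carry Janus kinases, and these kinases phosphorylate STAT proteins, which then enter the nucleus and switch on target genes. Cish, Socs1, Socs2 and Socs3 are textbook products of this signal that feed back on it: their SH2 domain binds phosphorylated tyrosines of the receptor or the kinase, and their SOCS box recruits an elongin and cullin ubiquitin ligase. In the maternal brain the prolactin receptor and phosphorylated STAT5 are established readouts of lactogenic hormone signalling. The arrays measure transcripts, not phosphorylation.

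STAT5 dimers bind the palindrome TTCNNNGAA, which reads the same on both strands, and the members' promoters were searched for it because STAT5 and its feedback inhibitors are both in the group. Promoter windows from 250 bases before to 50 bases after the transcription start (RefSeq, GRCm38.p6) were found for 6 of the 10 genes, in 8 windows, and were not in the table for Socs2, Socs5, Socs6 and Socs7. The palindrome lay in the windows of 2 genes, Cish and Socs3, and in 8.30% of all 32851 windows. The Cish window held it 2 times, as 2 or more copies did in 0.457% of all windows, with first bases at positions 1 and 12 counted from the start as position 1. The Socs3 window held it once, at position −154. Both stretches are printed 5′ to 3′ in the direction of the gene, with the palindromes in capitals. The Cish stretch is chr9:107296559-107296688 on the plus strand and the Socs3 stretch is chr11:117969466-117969566 on the minus strand.
Cish: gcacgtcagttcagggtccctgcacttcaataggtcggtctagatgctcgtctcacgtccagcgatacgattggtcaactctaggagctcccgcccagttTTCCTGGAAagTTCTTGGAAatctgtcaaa
Socs3: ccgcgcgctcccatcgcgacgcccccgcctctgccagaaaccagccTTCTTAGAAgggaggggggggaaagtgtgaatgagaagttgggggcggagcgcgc

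A match of these letters is a description of the sequence and does not show that STAT5 was bound there.

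The 12 arrays were alike in scale, with median intensities from 320 to 339 and correlations of their log2 values from 0.987 to 0.994. In the fit over all 35556 clusters (limma, lactating minus virgin, on the log2 of intensity plus 16), no cluster passed an adjusted p of 0.05 after Benjamini-Hochberg correction, and the smallest adjusted p was 0.0715. At an unadjusted p under 0.05, 1160 clusters were higher in lactating mice, which is 3.26% of all, and 1668 were lower, which is 4.69%, or 7.95% in either direction. Virgin mouse 2 stood apart, since 33.8% of all clusters had their lowest or highest value there. The differences of the members are therefore also given without that mouse where it was at an end of the range.

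Cish, an inhibitor that attaches to activated cytokine receptors and dampens STAT5 signalling, was brighter in every lactating mouse than in any virgin. Its cluster (10588577) read 346, 332, 355, 352, 336 and 339 in lactating mice 1 to 6, and 307, 291, 306, 308, 302 and 304 in virgin mice 1 to 6. The groups did not overlap, and a gap separated the lowest lactating mouse from the highest virgin. The group means were 343 ± 8.98 (SD, n = 6) in lactating and 303 ± 6.23 (SD, n = 6) in virgin mice, 13.3% higher in lactating mice, or a log2 difference of 0.17 with a standard error of 0.0311. Lack of overlap with lactating mice higher was found in 74 clusters of the array, 0.208% of all, and in either direction in 0.394%. Among the 14 member clusters Cish was the only one without overlap. Without virgin mouse 2, which held the lowest value, the log2 difference of Cish was 0.16. The mice of each group lay close together, with a coefficient of variation of 2.62% in lactating and 2.06% in virgin mice, the smallest of the 14 clusters in each group.

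**Figure D1:**
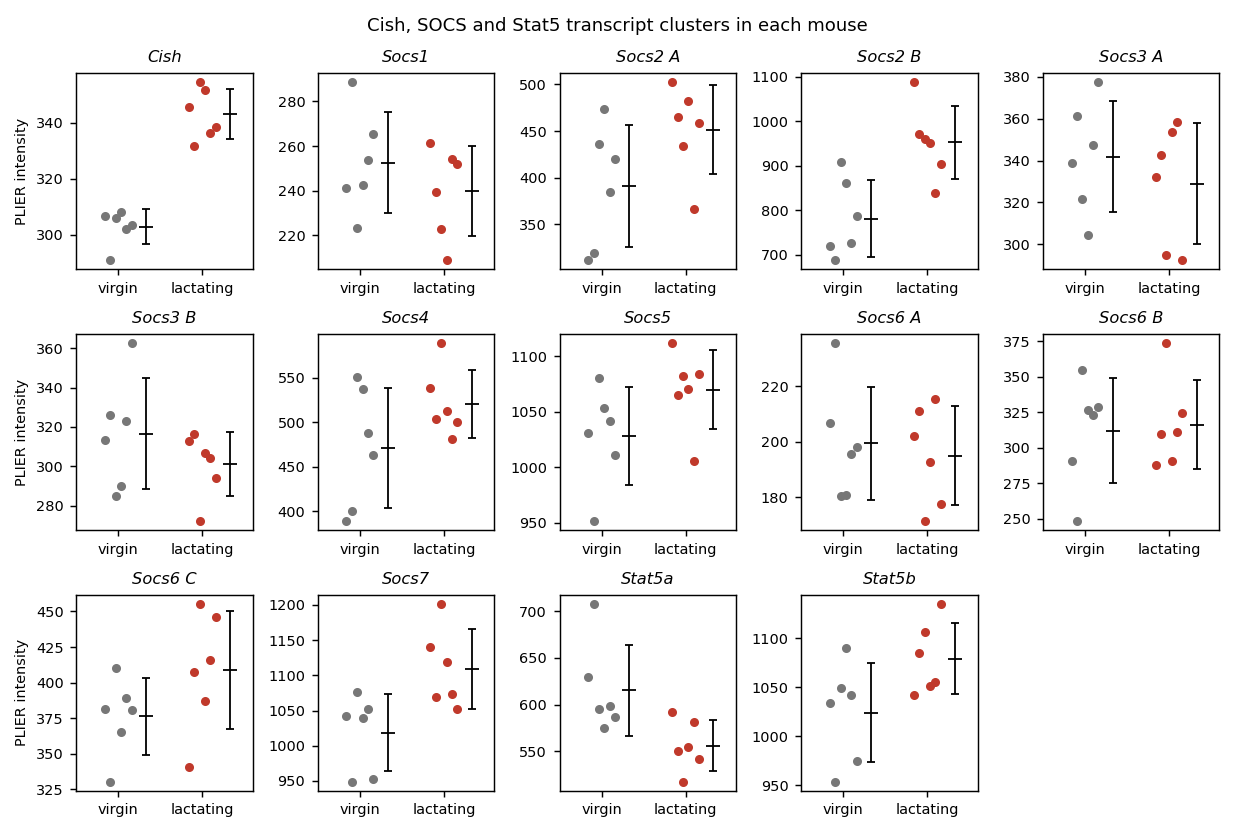
PLIER intensity (linear axis, each panel with its own range) of the 14 member clusters in each of 6 virgin (grey) and 6 lactating (red) mice, with the mean ± SD of each group beside the points. Letters mark the clusters of a gene in the order given in the text. The 6 lactating mice lie above all virgins for Cish alone, and the groups overlap in the other 13 panels.

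Socs2, best known as the inhibitor of growth hormone receptor signalling and itself a STAT5 target, was read by 2 clusters, both brighter on average in lactating mice. Cluster 10394674, called Socs2 B, ran from 839 through a median of 956 to 1088 in lactating mice and from 688 through 756 to 908 in virgins. The upper 4 lactating mice lay above every virgin, and lactating mice 5 and 6 fell among the virgins. The means were 953 ± 82.6 and 782 ± 87.2 (SD, n = 6 each), 21.9% higher in lactating mice, a log2 difference of 0.28 with a standard error of 0.0758 and the widest gap of the 14 clusters on that scale. It was 0.25 without virgin mouse 2, the lowest array, and 0.24 without lactating mouse 1, the highest.

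Cluster 10372069, called Socs2 A, ran from 367 through 462 to 502 in lactating mice and from 312 through 402 to 474 in virgins. Only lactating mice 1 and 4 were above every virgin, and virgin mice 1 and 2 were far below the rest. Lactating mice were higher by 0.21 on the log2 scale (SE 0.105), and by 0.15 without virgin mouse 1. The 2 clusters thus pointed the same way, while the spread between the mice of a group was wider than for Cish, at 16.7% of the mean in virgins for Socs2 A and 11.2% for Socs2 B.

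Socs7, an adaptor of the family found in neurons and known from insulin and prolactin signalling, was also brighter on average in lactating mice. Its cluster ran from 1052 through 1096 to 1202 in lactating mice and from 949 through 1041 to 1076 in virgins. Lactating mice 1, 3 and 4 lay above every virgin, and virgin mice 2 and 6 lay below every other mouse. The means were 1109 ± 56.3 and 1019 ± 54.4 (SD, n = 6 each), 8.89% higher in lactating mice, a log2 difference of 0.12 with a standard error of 0.0460, and 0.10 without virgin mouse 2.

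Socs1, the inhibitor that binds Janus kinases directly and restrains interferon signals, was slightly dimmer on average in lactating mice with wide overlap. It ran from 209 through 246 to 261 in lactating mice and from 223 through 248 to 289 in virgins. The difference was −0.07 on the log2 scale (SE 0.0660), smaller than the spread between the mice, and −0.03 without virgin mouse 2, the highest array.

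Socs3, the feedback inhibitor of gp130 and leptin receptor signals that is induced in inflammation, showed no separation of the groups in either of its clusters. Cluster 10383010, called Socs3 A, ran from 293 through 337 to 358 in lactating mice and from 304 through 343 to 377 in virgins. Cluster 10393449, called Socs3 B, ran from 272 through 305 to 316 in lactating mice and from 285 through 318 to 363 in virgins. Virgin mouse 6 held the highest value in both. The log2 differences were −0.05 and −0.07, with standard errors of 0.0643 and 0.0576, and both were −0.03 without virgin mouse 6.

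Virgin mouse 6 also stood apart in genes of inflammation and of immune cells. Lcn2, a secreted iron-trapping protein of inflammation and a listed target of STAT5, read 10495 there and 141 to 210 in the other 11 mice, 50.1-fold above the next mouse. Ptprc, the leukocyte antigen CD45, read 268 against at most 198 elsewhere, and Il7r, a cytokine receptor of lymphocytes, read 274 against at most 176. Stat3, the factor downstream of gp130 that induces Socs3, read 1355 there against at most 1188. The 11 markers of microglia and leukocytes lay on average 0.41 on the log2 scale above their mean over all mice in virgin mouse 6 and between −0.10 and 0.01 in the other virgins. The part of these cells in the Socs3 values was not tested. Lcn2, Ptprc and Il7r were singled out after their values were seen.

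**Figure D2:**
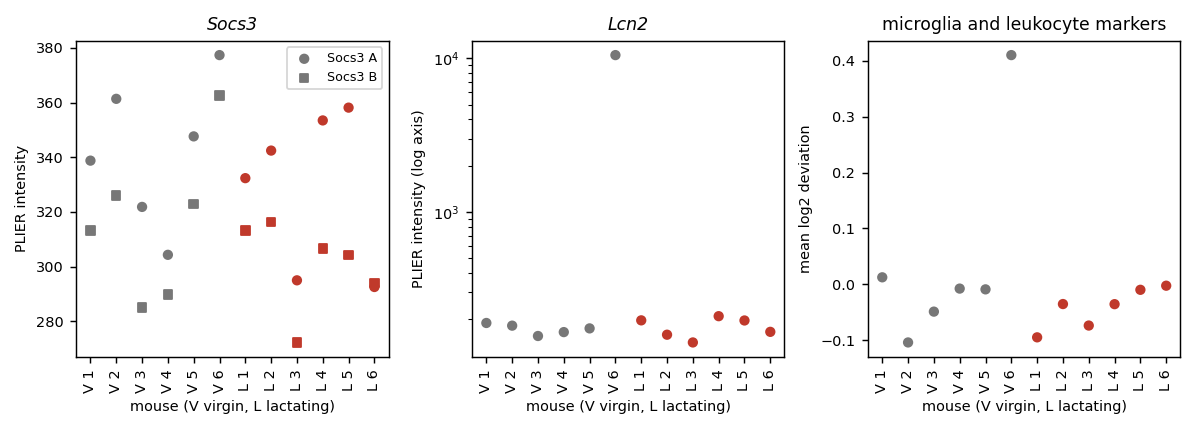
Intensity of the 2 Socs3 clusters (left, linear axis), intensity of Lcn2 (middle, log axis) and mean log2 deviation of 11 microglia and leukocyte markers (right) in each virgin (grey) and lactating (red) mouse. Virgin mouse 6 holds the highest point in every panel, at 377 and 363 for Socs3, 10495 for Lcn2 and 0.41 for the markers.

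Socs4, Socs5 and Socs6, the members with less known substrates, of which Socs4 and Socs5 are known to act on the epidermal growth factor receptor, differed less than their spread or little beyond it. Socs4 ran from 482 through 508 to 589 in lactating mice and from 389 through 476 to 551 in virgins, with virgin mice 1 and 2 below every other mouse, and lactating mice were higher by 0.15 on the log2 scale (SE 0.0856). Socs5 ran from 1005 through 1077 to 1112 in lactating mice and from 951 through 1036 to 1080 in virgins, a log2 difference of 0.06 with a standard error of 0.0385. Both groups overlapped for each gene, and without virgin mouse 2 the differences were 0.11 and 0.04. Without virgin mouse 1, the lowest array for Socs4, its difference was 0.10.

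Socs6 was read by 3 clusters that did not give one direction. Socs6 A (10460116) ran from 171 to 215 in lactating and from 181 to 236 in virgin mice, with a log2 difference of −0.03 (SE 0.0705). Socs6 B (10460118) ran from 288 to 374 and from 249 to 355, with a difference of 0.02 (SE 0.0820), and Socs6 C (10566668) ran from 340 to 455 and from 330 to 411, with a difference of 0.11 (SE 0.0694). Without virgin mouse 2, an end of the range in all 3, the sign of the first 2 turned, to 0.02 and −0.04, and the last became 0.08. No direction can be given for Socs6.

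Stat5a and Stat5b, neighbouring genes that encode closely related transcription factors, differed in opposite directions. Stat5a, the form most needed for milk production in the mammary gland, read 592, 550, 517, 554, 582 and 542 in lactating mice 1 to 6 and 630, 708, 595, 575, 599 and 586 in virgin mice 1 to 6. Lactating mice 2, 3, 4 and 6 lay below every virgin, lactating mice 1 and 5 overlapped the lower virgins, and virgin mouse 2 was far above all others. The means were 556 ± 27.3 and 615 ± 48.8 (SD, n = 6 each), a difference of −9.64% and of −0.14 on the log2 scale (SE 0.0528). Without virgin mouse 2 it was −0.10, the smallest size when any single mouse was left out.

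Stat5b, the form most needed for the growth hormone response of the liver, ran from 1043 through 1070 to 1135 in lactating mice and from 954 through 1038 to 1090 in virgins. Lactating mice 3 and 6 lay above every virgin and virgin mice 2 and 6 below every other mouse. The means were 1079 ± 36.4 and 1024 ± 50.4 (SD, n = 6 each), 5.40% higher in lactating mice, a log2 difference of 0.08 with a standard error of 0.0404, and 0.06 without virgin mouse 2.

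Within each mouse, the log2 value of Stat5b exceeded that of Stat5a by 0.80 to 1.07 in lactating mice and by 0.42 to 0.90 in virgins. The mean was 0.94 ± 0.110 in lactating and 0.72 ± 0.163 in virgin mice (SD, n = 6 each), so the gap was 0.22 wider in lactating mice and 4 of 6 lactating mice lay above every virgin. Virgin mouse 2 held the lowest gap, at 0.42 with the other virgins between 0.70 and 0.90, and without it the difference was 0.16, a value added after seeing the data. The 2 clusters have different probes, so the gap between them within a mouse does not give the ratio of the 2 transcripts, and only its change between mice can be read. In the order of genes on the chromosome the pair lies between Ghdc and Stat3, and Stat3 itself differed by −0.01 between the groups and by 0.04 without virgin mouse 6, so it has no settled direction.

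**Figure D3:**
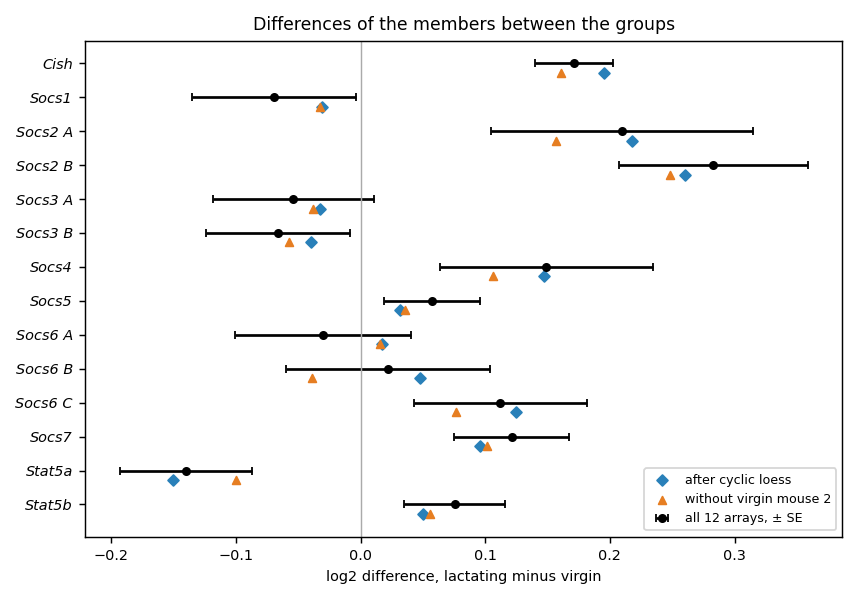
Log2 difference, lactating minus virgin mice, of the 14 member clusters. Black points with bars are the difference ± SE over all 12 arrays, blue diamonds the difference after cyclic loess normalization and orange triangles the difference without virgin mouse 2. Cish, both Socs2 clusters and Socs7 lie to the right of 0 and Stat5a to the left under all 3, and Socs6 A and B lie on both sides.

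Over the 14 clusters, 9 were higher and 5 lower on average in lactating mice, and the median log2 difference was 0.07, beside −0.01 over all clusters of the array. At the limma threshold, 4 of these clusters passed an unadjusted p under 0.05, 3 of them higher (Cish, Socs2 B and Socs7) and 1 lower (Stat5a), beside the 7.95% of all clusters given above. Nothing is read from this count, since the contrast is the one on which the genes were selected. It was 6 without virgin mouse 3 and 7 without virgin mouse 4, when Socs2 A, Socs4 and Stat5b were added.

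Virgin mouse 2 held the lowest value in 7 and the highest in 3 of the 14 clusters, so 10 of 14 had an end of their range there. Lactating mouse 3 held an end in 8 of 14, compared with 28.2% of all clusters. In virgin mouse 2 the dimmer 17778 clusters of the array lay 0.10 above and the brighter 17778 lay 0.02 below their mean over the mice at the median (log2), and in lactating mouse 3 they lay 0.08 below and 0.04 above. Of the members, Socs1 and Socs6 A were highest and Socs2 B, Socs5, Socs6 B, Socs6 C, Socs7 and Stat5b lowest in virgin mouse 2, with Cish lowest and Stat5a highest there too. The part of these shifts in the members' differences was not tested, and the differences after cyclic loess, which levels such shifts, were 0.20 for Cish, 0.22 for Socs2 A, 0.26 for Socs2 B, 0.15 for Socs4, 0.10 for Socs7, −0.15 for Stat5a and 0.05 for Stat5b. It brought Socs1 to −0.03, Socs3 A and B to −0.03 and −0.04 and Socs5 to 0.03. It moved Socs6 B from 0.02 to 0.05 and Socs6 C from 0.11 to 0.12, and turned Socs6 A from −0.03 to 0.02.

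**Figure D4:**
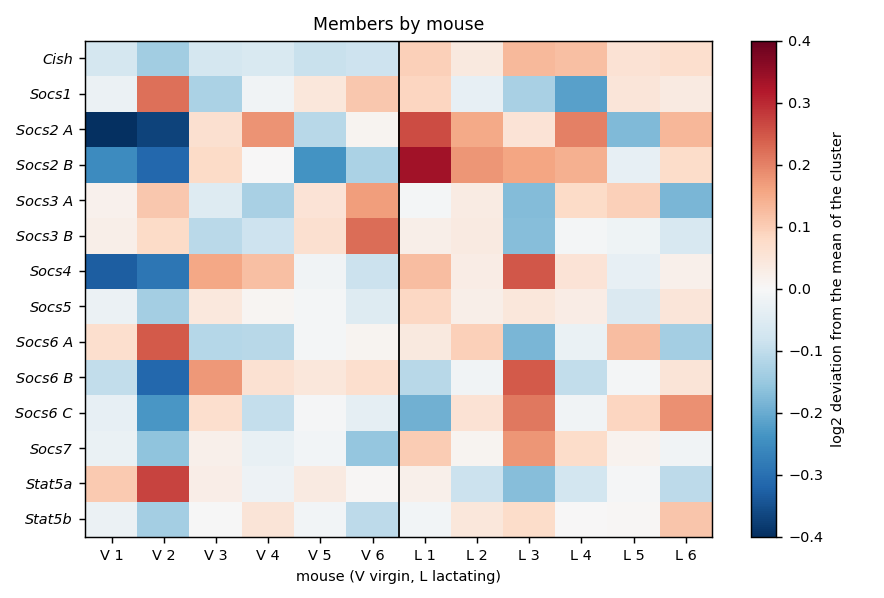
Log2 deviation of each member cluster (rows) from its own mean over the 12 arrays in each virgin (V) and lactating (L) mouse (columns), from −0.4 in blue to 0.4 in red. The row of Cish changes colour at the line between the groups, and virgin mouse 2 is a strongly coloured column, being the lowest or highest mouse in 10 of the 14 rows.

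Across the 12 mice, the member most like Cish was Socs7, with Pearson r = 0.82, followed by Socs2 B with r = 0.81, and Stat5a ran opposite with r = −0.76. With each group's mean subtracted, which removes the difference between lactating and virgin mice, r was 0.76 for Socs7, 0.48 for Socs2 B and −0.60 for Stat5a. The strongest opposite courses were then Socs6 A at −0.73 and Socs1 at −0.71. These correlations describe 12 arrays in which the array-wide shifts given above are also present.

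Outside the members, the 5 clusters most like Cish over the 12 arrays, among 21775 with 1 gene symbol, were Dynll1 (r = 0.93), a light chain of dynein, Tmem177 (r = 0.92), Ppm1h (r = 0.90), a protein phosphatase, Ensa (r = 0.90), an inhibitor of a protein phosphatase, and Ccni (r = 0.90), a cyclin-family protein. All 5 were higher in lactating mice, by 0.12, 0.15, 0.20, 0.10 and 0.10 on the log2 scale. Their r over the 12 arrays therefore includes the difference between the groups on which Cish was selected. With the group means subtracted the values of r were 0.55, 0.49, 0.75, 0.81 and 0.54. The 5 clusters most like Cish within the groups were Pnpla3 (r = 0.96), a lipid droplet protein, Tuba4a (r = 0.91), an alpha tubulin, Coro1a (r = 0.90), an actin-binding protein, Lats2 (r = 0.88), a kinase of the Hippo pathway, and Hps4 (r = 0.88).

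The genes around the members in the pathway were taken from lists chosen by known role, with earlier results of these data known. Of the listed genes, 115 were measured by a cluster with 1 gene symbol. Of these 115, 4 were higher and 3 lower in lactating mice at an unadjusted p under 0.05, or 6.09%, beside 7.95% of all clusters. Among all clusters with 1 gene symbol, 3.84% were higher and 4.81% lower. The median log2 difference of the 115 was −0.01. List medians below stand beside a median of −0.05 over the dimmer 17778 clusters of the array, where all 13 ligands lie, and of 0.02 over the brighter 17778, where all 7 partners of the SOCS box lie. None of the 115 passed after correction over all clusters, with adjusted p of 0.619 or above for each (limma). The count was 12 without virgin mouse 3 and 13 without virgin mouse 4.

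Among 13 ligands, Csf2, the cytokine GM-CSF whose receptor signals through STAT5, passed the unadjusted p, and the median log2 difference over the 13 was −0.09. Csf2 read 122 to 137 in lactating and 141 to 159 in virgin mice, so every lactating mouse lay below every virgin, with means of 130 ± 5.75 and 150 ± 6.42 (SD, n = 6 each), a log2 difference of −0.19, or −0.17 without virgin mouse 2, the highest array (limma adjusted p = 0.619). Lack of overlap in either direction was found in 0.394% of all clusters, as given for Cish. Csf2 was a dim cluster, at percentile 24.0 of intensity over the array. Prl and Gh, the pituitary hormones prolactin and growth hormone, were also dim, at percentiles 26.2 and 39.4. Prl and Gh differed by −0.26 and −0.18 without passing (limma adjusted p = 0.711 and 0.691). Both differences shrank to −0.03 and −0.04 without virgin mouse 4, which read 385 for Prl and 421 for Gh against at most 171 and 242 in the other mice.

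Among 27 receptors, Lifr, the receptor subunit for leukemia inhibitory factor, was higher at 633 ± 46.8 against 575 ± 46.0 (SD, n = 6 each; log2 difference 0.14, limma adjusted p = 0.623). Igf1r, the receptor of insulin-like growth factor 1, was higher at 1258 ± 70.4 against 1155 ± 47.7 (0.12, limma adjusted p = 0.619). Il5ra, the interleukin 5 receptor chain, was lower at 75.6 ± 9.48 against 86.4 ± 5.98 (−0.17, limma adjusted p = 0.619). The Il5ra cluster was dim, at percentile 11.9 of intensity. The unadjusted threshold was missed for Lifr without any single one of lactating mice 2, 3, 4 and 5 and virgin mice 1, 2, 5 and 6 (0.10 to 0.14), and for Il5ra without lactating mouse 3 or 6 or virgin mouse 1, 2 or 5 (−0.16 to −0.11). Ghr, the growth hormone receptor, read 702 ± 26.3 and 741 ± 56.4, a difference of −0.07 that did not pass (limma adjusted p = 0.670). The median over the receptors was −0.03. The prolactin receptor had no cluster with its symbol alone and was not analysed here.

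None of the 7 kinases and other STAT genes passed, with a median of 0.02. Jak2, the kinase of the prolactin and growth hormone receptors, read 1504 ± 117 and 1449 ± 61.8 (log2 difference 0.05, or 0.02 without lactating mouse 1, limma adjusted p = 0.752), and Stat3 read 1134 ± 33.1 and 1144 ± 112 (limma adjusted p = 0.969). Of 12 other inhibitors, Sh2b3, the adaptor Lnk that restrains JAK2, was higher, at 650 to 663 in lactating and 617 to 642 in virgin mice without overlap (log2 difference 0.07, limma adjusted p = 0.619), though it missed the unadjusted threshold without lactating mouse 2 at the same difference. Lack of overlap with lactating mice higher was found in 0.208% of all clusters, as given for Cish. All 7 measured partners of the SOCS box, the ubiquitin ligase subunits, had positive differences with a median of 0.04, and none passed. Of the 27 other proteins with a SOCS box, 14 were higher and 13 lower on average, and none passed.

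Of 22 known targets of STAT5 outside the members, 1 was higher and 1 lower, with a median of −0.05. Bcl6, a transcriptional repressor that STAT5 represses in lymphocytes, was higher at 575 ± 63.5 against 498 ± 32.0 (log2 difference 0.19, limma adjusted p = 0.619). Elf5, an ETS factor of the mammary gland that prolactin induces there, was lower at 179 ± 8.79 against 197 ± 12.0 (−0.13, limma adjusted p = 0.619). The Elf5 cluster lay in the dimmer part of the array, at percentile 33.1 of intensity. The milk protein genes Csn1s1, Csn2 and Wap, classic STAT5 targets in the mammary gland, differed by −0.11, −0.08 and −0.11 without passing.

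**Figure D5:**
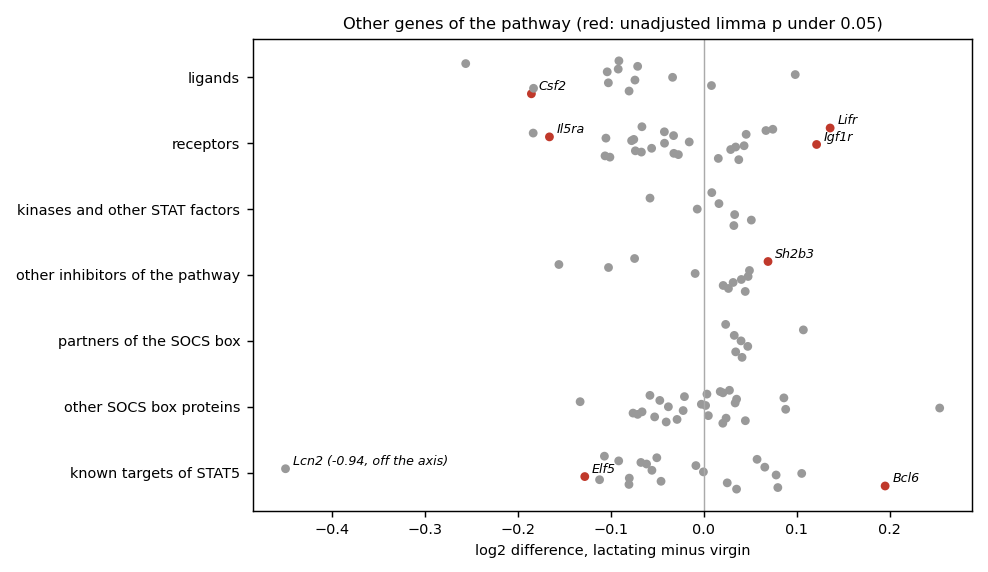
Log2 difference, lactating minus virgin mice, of 115 other pathway genes by list, with 1 point a gene; vertical scatter within a list has no meaning. Red points have an unadjusted limma p under 0.05 (7 genes), and Lcn2 lies beyond the axis at −0.94, with 1 virgin mouse at 10495.

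The tissue carried the markers of brain cells in both groups, with the 10 neuron markers at a mean log2 level of 12.4 to 12.5 in every mouse. No marker passed an unadjusted p under 0.05 among the neuron, astrocyte, oligodendrocyte, endothelium and striatum lists. Of the 6 striatum markers, 5 were lower and 1 higher on average, with a median of −0.13. Their mean log2 deviation ran from −0.48 in lactating mouse 4 to 0.29 in lactating mouse 2, and from −0.09 to 0.25 in virgins. For the 8 oligodendrocyte markers it ran from −0.28 in lactating mouse 1 to 0.37 in lactating mouse 6, and from −0.13 to 0.14 in virgins. Of 11 microglia and leukocyte markers 3 passed an unadjusted p under 0.05 and were lower in lactating mice, beside 4.69% of all clusters. Among them were P2ry12, a purine receptor of microglia (log2 difference −0.12), and Cd3e, a T cell receptor chain (−0.13). The third was Cx3cr1, the fractalkine receptor of microglia (−0.11). Cx3cr1 read 778 to 814 in lactating and 819 to 1013 in virgin mice, without overlap. Such lack of overlap, in either direction, was found in 0.394% of all clusters. Over the 11 markers, 9 were lower and 2 higher on average, with a median of −0.11. These averages include virgin mouse 6, where the mean log2 deviation of the list was 0.41. It was −0.10 to 0.01 in the other virgins and −0.10 to −0.003 in lactating mice, so without that mouse the groups overlapped widely. The list median without virgin mouse 6 was not computed. Of 8 choroid plexus markers, Clic6 was higher (0.16) and Slc4a5 lower (−0.12), and of 7 ependyma markers Ccdc153 was lower (−0.13). Of the 2 blood markers Alas2, an enzyme of heme synthesis in red cells, was higher (0.31). The other, Slc4a1, differed by 0.02 without passing. The adjusted p of each was 0.619 or above (limma). Leaving out single mice ended the unadjusted call of Clic6 (lactating mice 1 to 5, virgin mice 1, 2, 5 and 6; 0.11 to 0.17), of Slc4a5 (lactating mice 1, 2, 3 and 6, virgin mice 1, 2, 5 and 6; −0.12 to −0.10) and of Ccdc153 (lactating mice 1, 3, 4 and 5, virgin mice 3, 5 and 6; −0.13 to −0.10). The part of these cells in the members' values was not tested.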

How the data were processed

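Total RNA from the septum of 12 mice was hybridised to Affymetrix Mouse Gene 1.0 ST arrays. The deposited values are intensities on a linear scale, which the authors made with the PLIER algorithm and GC bin background correction in Affymetrix Power Tools 1.12.0. The genome build behind the array annotation is not given in the sources used here. Genes were named from the platform annotation, in which 12146 clusters had no gene, 1621 several and 21789 one.

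Lactating and virgin mice were compared with limma 3.58.1 (R 4.3.3; lmFit, eBayes, two-sided) on log2 of intensity plus 16, over all 35556 clusters without a filter, with Benjamini-Hochberg adjustment over all of them. The added 16 pulls log2 differences of dim clusters towards 0. Fits were tested on simulated data. The methods state that RNA was extracted in matched pairs, which the labels do not give, so the groups were compared as independent. The precision is limited by 6 arrays a group.

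The members and the gene lists were chosen with earlier results of these data known. All members were described, with the 5 genes most like Cish by each measure. In each pathway list genes with an unadjusted p under 0.05 were named (at most 4). Prl, Gh, Ghr, Jak2 and Stat3 were named whatever their values. In marker lists at most 2 were named, with Cx3cr1 and Slc4a1 added after their values were seen. A gene with several clusters in the lists was taken by its brightest cluster. The 21 list entries without a cluster of their own, among them Prlr and Jak3, were not analysed here. Alternatives were other scales, added values, normalizations, filters, variance models, array weights, a block and each array left out.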

Additional observations from a re-analysis of the deposited data

Results flagged for a closer look

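Cish in virgin mouse 2 stood away from its group, at an intensity of 291 where the other virgins lay between 302 and 308. In virgin mouse 4, Prl read 385 with the next virgin at 171, and Gh read 421 with the next virgin at 236. In virgin mouse 6, Lcn2 read 10495 with the next virgin at 189, Il7r 274 with the next at 176, Ptprc 268 with the next at 198, and Cx3cr1, the fractalkine receptor of microglia, 1013 with the next at 868. These are 7 of 72 groups of 6 mice checked, from 36 clusters, by the gap of the end value to its neighbour (Dixon's rule). Chance gives such a gap in about 5% of groups, and Lcn2, Il7r, Ptprc and Cx3cr1 were looked at after their values were seen.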

How the results depend on the processing

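The log2 difference of Cish lay between 0.16 and 0.20 in all 21 alternatives. The other members kept their sign in every alternative except Socs6 A, with the same sign in 17 of 21, and Socs6 B, in 18 of 21. With each mouse left out in turn, the difference was 0.24 to 0.33 for Socs2 B, 0.10 to 0.14 for Socs7, −0.16 to −0.10 for Stat5a and 0.06 to 0.09 for Stat5b. At an unadjusted p under 0.05, leaving out a mouse moved the clusters passing from 2828 to between 1864 and 4058, those higher from 1160 to between 782 and 1783, and those lower from 1668 to between 1054 and 2599, the members from 4 to between 4 and 7, and the other pathway genes from 7 to between 5 and 13, with 2 to 7 higher and 2 to 7 lower. Testing only the 17778 clusters above the median intensity, which removes Cish, gave 1642 clusters, 504 of them lower, and 4 pathway genes. Of these genes 0 were lower, since the filter also removes Csf2, Il5ra and Elf5. Subtracting array medians gave 2027 higher and 992 lower clusters. Array weights gave 10 pathway genes, 7 higher. With the replicate block, 8 pathway genes passed, 5 of them lower. Deviations of same-numbered mice correlated above 0.1 in 2 of 6 pairs. Differently numbered mice were not correlated for comparison, so this does not decide whether equal numbers mark the extraction pairs. The labels do not give the pairs, so the numbers were not taken as pairs. Of the named pathway genes, Csf2, Igf1r and Bcl6 passed in every alternative that kept them. Il5ra, Lifr, Sh2b3 and Elf5 did not pass in some, Sh2b3 and Elf5 both after quantile normalization and cyclic loess. Why the other counts moved was not tested.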
